A study of Mus musculus with 12 samples.

Results

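Prox1, Zbtb20, Lef1, Wnt3a, Wnt2b, Wnt8b, Rspo3, Lmx1a and Lhx9 are genes by which the hippocampus and the cortical hem are recognised in the embryonic forebrain, and they were followed here through the cerebral cortex of mouse embryos with a conditional deletion of Egfr, which encodes the epidermal growth factor receptor. The 9 genes were chosen by name from the 55357 genes that the count files list, and all 9 had counts. The cortical hem is a strip of tissue along the medial edge of the cortical sheet that secretes Wnt and Bmp proteins, induces the hippocampus beside it and sheds Cajal-Retzius cells. Wnt proteins bind Frizzled receptors and, through beta-catenin, turn Lef1 and its relatives from repressors into activators, and R-spondins amplify the signal by keeping the receptors at the cell surface. Mice without the hem ligand Wnt3a have little or no hippocampus, and mice without Lef1 lack granule cells of the dentate gyrus.

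Messenger RNA was sequenced from cortices dissected together with the hippocampal formation of embryos at E17.5 and split into a rostral and a caudal part. Knockout embryos had both Egfr alleles floxed (2 alleles, F/F) and a Nestin-Cre transgene, whose promoter is active in neural progenitors, and control embryos had 1 floxed and 1 intact allele (F/+). The titles give 12 libraries from 6 embryos in 4 groups of 3, which are knockout rostral and knockout caudal (embryos 5, 2 and 7) and control rostral and control caudal (embryos 1, 3 and 9). The titles name Cre in the knockouts alone, and whether the controls carry it is not given, so the loss of Egfr and the presence of Cre cannot be told apart. The controls have 1 Egfr allele that Cre could remove, and they are not wild type. A library is called here by its group and its embryo number.

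Total counts ran from 25223733 to 30383672 per library, and 3 counts correspond to between 0.0987 and 0.119 CPM (counts scaled to a total of 1000000 per library). Egfr, the targeted gene, was at 4.87, 3.60 and 6.93 CPM in knockout rostral 5, 2 and 7, against 19.2, 26.0 and 31.1 CPM in control rostral 1, 3 and 9, and at 5.69, 7.33 and 6.21 CPM in knockout caudal 5, 2 and 7, against 29.9, 36.8 and 41.6 CPM in control caudal 1, 3 and 9. Nr2f1, a transcription factor known for a gradient that is high caudally and low rostrally in the cortex, did not follow the labels. It was at 97.1, 340.2 and 205 CPM in knockout rostral 5, 2 and 7, against 78.9, 348 and 50.7 CPM in control rostral 1, 3 and 9, and at 248, 71.3 and 348 CPM in knockout caudal 5, 2 and 7, against 343, 58.6 and 373 CPM in control caudal 1, 3 and 9. In knockout embryo 2 and control embryo 3 it was thus high in the library labelled rostral and low in the one labelled caudal. Xist and Y-linked transcripts were those of different sexes in the libraries labelled as parts of knockout embryo 5, knockout embryo 2 and control embryo 9, and control rostral 1 and 3 held both kinds. Whether libraries were exchanged or mixed was not tested. All labels are kept as given, and the comparisons are also given without embryos 2 and 3 and without embryos 5, 2 and 9, and those that use control rostral 1 and 3 as libraries of their own also without these. Mitochondrial genes took between 1.96% and 7.25% of the counts, with the highest share in knockout rostral 7.

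The sequences just before the transcription start are shown for 5 of the genes whose levels moved together over the libraries. They are the RefSeq windows of 250 bases before the start, on the gene's strand, in build GRCm38.p6, from 5′ to 3′. Capitals mark a TCF/LEF motif (CTTTGAT or CTTTGTT), the letters that Lef1 and its relatives bind, or a homeodomain motif (TAATTA), the core that LIM homeodomain proteins such as Lmx1a and Lhx9 bind. Both motifs were searched on both strands, they do not overlap one another, and windows without capitals hold neither.
Wnt3a: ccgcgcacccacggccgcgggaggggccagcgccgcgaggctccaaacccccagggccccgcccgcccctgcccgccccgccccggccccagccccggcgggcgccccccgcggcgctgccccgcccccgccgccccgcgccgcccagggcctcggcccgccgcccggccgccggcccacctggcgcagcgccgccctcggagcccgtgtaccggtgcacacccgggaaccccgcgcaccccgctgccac
Wnt2b: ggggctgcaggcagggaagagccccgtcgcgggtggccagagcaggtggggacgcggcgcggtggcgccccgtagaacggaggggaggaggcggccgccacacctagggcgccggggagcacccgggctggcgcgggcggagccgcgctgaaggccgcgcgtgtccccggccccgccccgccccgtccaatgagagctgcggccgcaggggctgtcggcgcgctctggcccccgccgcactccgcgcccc
Wnt8b: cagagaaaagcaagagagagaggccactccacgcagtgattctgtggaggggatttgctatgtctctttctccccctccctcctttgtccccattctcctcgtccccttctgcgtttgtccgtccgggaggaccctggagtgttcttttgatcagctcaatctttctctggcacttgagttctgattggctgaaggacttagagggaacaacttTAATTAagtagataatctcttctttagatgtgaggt
Lmx1a: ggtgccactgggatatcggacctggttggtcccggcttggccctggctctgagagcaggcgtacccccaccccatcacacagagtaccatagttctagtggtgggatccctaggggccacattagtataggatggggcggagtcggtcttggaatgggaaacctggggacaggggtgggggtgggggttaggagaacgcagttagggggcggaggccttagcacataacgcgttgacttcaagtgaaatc
Lhx9: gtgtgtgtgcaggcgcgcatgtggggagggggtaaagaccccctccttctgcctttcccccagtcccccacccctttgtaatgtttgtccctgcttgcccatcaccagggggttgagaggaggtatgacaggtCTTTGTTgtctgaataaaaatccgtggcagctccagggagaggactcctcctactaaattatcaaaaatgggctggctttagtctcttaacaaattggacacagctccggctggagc

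The windows lie at chr11:59290752-59291001 (minus strand) for Wnt3a, chr3:104961710-104961959 (minus strand) for Wnt2b, chr19:44493222-44493471 (plus strand) for Wnt8b, chr1:167689308-167689557 (plus strand) for Lmx1a and chr1:138842445-138842694 (minus strand) for Lhx9. The table gave 12 windows for 8 of the 9 genes, with Rspo3 the gene left unmatched. Lhx9 alone among them held a TCF/LEF motif, which stands in 2648 of all 32851 windows (8.06%). Wnt8b alone held a TAATTA, which stands in 4.84% of all windows. The Wnt3a and Wnt2b windows were 87.6% and 80.8% G and C with 41 and 36 CpG dinucleotides, against a median of 52.4% and 6 CpG over all windows. Wnt8b, Lmx1a and Lhx9 had 48.4%, 59.2% and 53.6% G and C and 5, 9 and 4 CpG, so the base composition of these starts ranged widely among genes with like profiles over the libraries.

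In the files' build, GRCm39, Wnt3a lies on chromosome 11 (59138859 to 59181578), Wnt2b on chromosome 3 (104852588 to 104869237), Wnt8b on chromosome 19 (44481911 to 44502712) and Rspo3 on chromosome 10 (29328412 to 29411863). Lef1 lies on chromosome 3 (130904120 to 131018005) and Zbtb20 on chromosome 16 (42696244 to 43462965). Prox1 (189850232 to 189902911), Lmx1a (167516806 to 167676310) and Lhx9 (138752924 to 138776315) lie far from each other on chromosome 1. Counts cover annotated exons, and no other annotated gene overlaps these on the same strand except the microRNA gene Mir568, which lies within Zbtb20 and shares its reads.

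Per kilobase of exon, Zbtb20 was the most abundant of the 9 genes, with 79.9 ± 24.5 TPM (CPM per kilobase of exon rescaled to the same total in each library, mean ± SD over 12 libraries). Rspo3 followed with 21.1 ± 6.19 TPM and Prox1 with 16.8 ± 7.13 TPM, and Rspo3 was the higher of this pair in 6 of 12 libraries, so their order is not fixed. Lhx9 averaged 3.03 ± 2.68 TPM, Wnt8b 2.41 ± 2.44 TPM and Lef1 2.03 ± 0.96 TPM, and these 3 did not separate beyond their spread. Wnt2b (1.05 ± 1.14 TPM), Lmx1a (0.794 ± 0.834 TPM) and Wnt3a (0.658 ± 0.818 TPM) were the lowest. Their SDs were larger than their means, and each was near 0 in some libraries and not in others.

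The 3 Wnt ligands of the hem were present in some libraries and nearly absent from others, and this did not follow genotype. Wnt3a, the defining ligand of the hem and one that the hippocampus needs to grow, was at 0, 1.08 and 0.357 CPM in knockout rostral 5, 2 and 7 and at 0, 1.86 and 0 CPM in control rostral 1, 3 and 9. It was at 1.58, 0 and 0 CPM in knockout caudal 5, 2 and 7 and at 0.656, 0.0738 and 1.88 CPM in control caudal 1, 3 and 9. No Wnt3a fragment was counted in 5 of 12 libraries, which allows up to 3 counts, or between 0.110 and 0.117 CPM in those libraries. Knockout and control libraries are found both at 0 and near the top.

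Wnt2b, a second ligand of the hem and of the tissue beside it, was at 0.311, 3.60 and 0.893 CPM in knockout rostral 5, 2 and 7, against 0.382, 4.12 and 0.0559 CPM in control rostral 1, 3 and 9. Among the caudal libraries it was at 2.37, 0.115 and 0.234 CPM in knockout 5, 2 and 7, against 2.08, 0.0738 and 3.61 CPM in control 1, 3 and 9. The same 5 libraries that were highest for Wnt3a were highest for Wnt2b, and they include both genotypes and both labelled parts. Wnt8b, which marks the hem and the hippocampal neuroepithelium, was at 0.0366, 7.03 and 0.964 CPM in knockout rostral 5, 2 and 7, against 1.45, 6.18 and 0.298 CPM in control rostral 1, 3 and 9. In knockout caudal 5, 2 and 7 Wnt8b was at 5.68, 0.0382 and 0.957 CPM, against 4.01, 0.664 and 6.61 CPM in control caudal 1, 3 and 9. Within every group the lowest and highest library lay further apart for Wnt8b than the group means did from each other. The lowest levels, in knockout rostral 5 and knockout caudal 2, rest on 1 count each.

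Rspo3, a secreted amplifier of Wnt signalling and a neighbour of these ligands in the pathway, did not share this pattern. It was at 22.6, 20.7 and 11.2 CPM in knockout rostral 5, 2 and 7, against 32.0, 21.2 and 30.8 CPM in control rostral 1, 3 and 9. Caudal levels were 18.4, 22.0 and 19.9 CPM in knockout 5, 2 and 7, against 19.7, 19.6 and 20.6 CPM in control 1, 3 and 9. Its levels stayed within a 2.86-fold range over the 12 libraries, with no library near 0. Knockout rostral 7 was the lowest, all other libraries lay between 18.4 and 32.0 CPM, and control rostral 1 and 9 were the highest.

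Lef1, the DNA-binding partner of beta-catenin, was at 2.67, 9.72 and 4.71 CPM in knockout rostral 5, 2 and 7, against 5.95, 7.75 and 2.98 CPM in control rostral 1, 3 and 9. It was at 8.69, 2.71 and 6.33 CPM in knockout caudal 5, 2 and 7, against 8.29, 2.47 and 9.53 CPM in control caudal 1, 3 and 9. Lef1 was detected in every library, and its 5 highest libraries were the same as those of the 3 Wnt ligands. Lmx1a, a LIM homeodomain factor of the roof plate and hem, was at 0.0366, 2.41 and 0.536 CPM in knockout rostral 5, 2 and 7, against 0.115, 2.34 and 0.0373 CPM in control rostral 1, 3 and 9. In knockout caudal 5, 2 and 7 Lmx1a was at 1.48, 0.0764 and 0.391 CPM, against 1.08, 0.369 and 2.04 CPM in control caudal 1, 3 and 9. It was low throughout, and its levels overlapped between genotypes in both labelled parts.

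Lhx9, a LIM homeodomain factor of medial cortex, thalamus and amygdala, spanned a 39.2-fold range. It was at 0.586, 23.0 and 5.78 CPM in knockout rostral 5, 2 and 7, against 4.12, 19.4 and 1.45 CPM in control rostral 1, 3 and 9. Among caudal libraries Lhx9 was at 13.1, 0.687 and 14.3 CPM in knockout 5, 2 and 7, against 15.3, 0.885 and 17.1 CPM in control 1, 3 and 9. In each caudal group 1 library was below 1 CPM and the others were above 13 CPM, and in both rostral groups 1 library stood far above the others.

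Prox1, which dentate granule cells need to form and keep their identity and which interneurons of the caudal ganglionic eminence also express, varied less. It was at 23.7, 73.0 and 43.5 CPM in knockout rostral 5, 2 and 7, against 23.5, 69.8 and 26.7 CPM in control rostral 1, 3 and 9. In knockout caudal 5, 2 and 7 it was at 56.7, 31.9 and 50.7 CPM, against 59.0, 31.6 and 76.8 CPM in control caudal 1, 3 and 9. Its highest library was 3.27 times its lowest, and the ranges of knockout and control overlapped in both parts. Zbtb20, a zinc finger repressor that specifies hippocampal pyramidal neurons and is also found in glia, was at 544, 1031 and 673 CPM in knockout rostral 5, 2 and 7, against 487, 777 and 675 CPM in control rostral 1, 3 and 9. In knockout caudal 5, 2 and 7 Zbtb20 was at 783, 845 and 1276 CPM, against 747, 834 and 1156 CPM in control caudal 1, 3 and 9. Knockout caudal 7 was the highest and control rostral 1 the lowest, 2.62-fold apart.

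**Figure D1:**
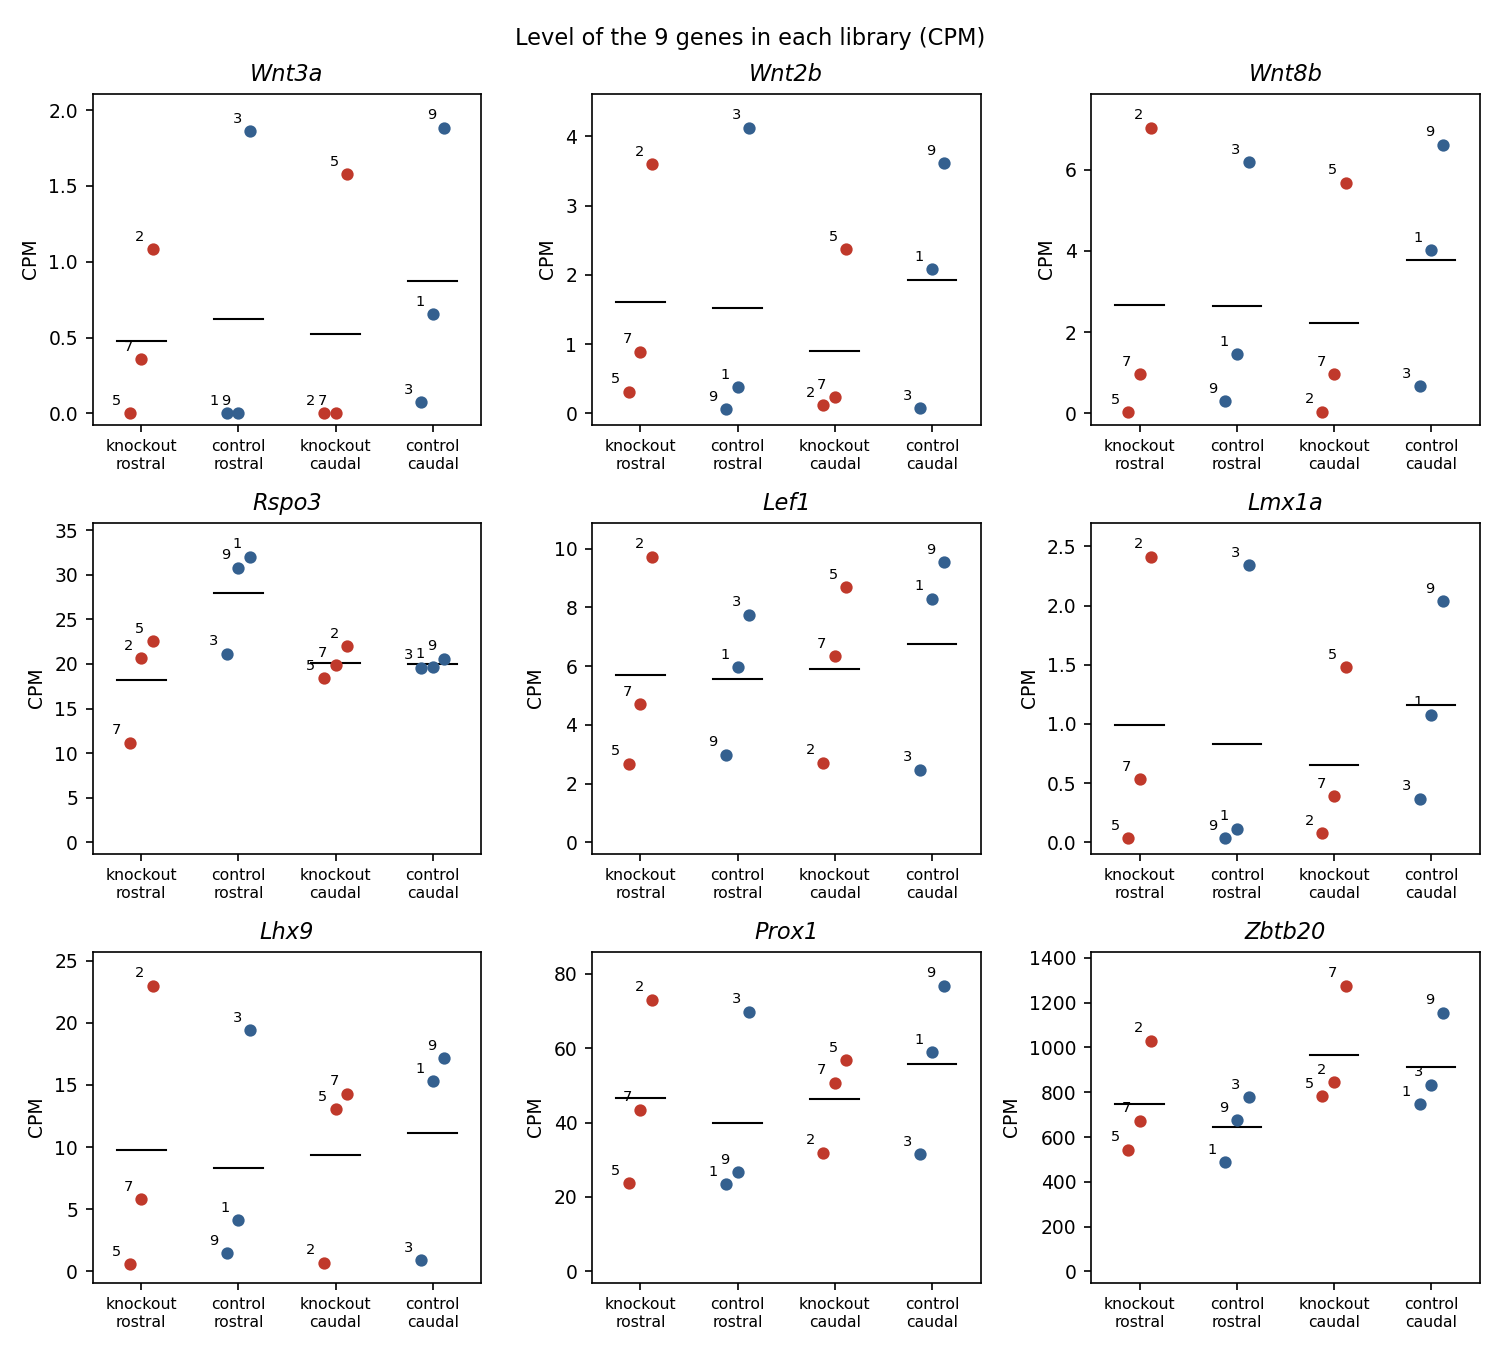
Level of each of the 9 genes (y axis, CPM, linear scale from 0) in the 4 groups (x axis), with 1 point per library (red, knockout; blue, control), its embryo number beside it, and the group mean as a line (n = 3). For Wnt3a, Wnt2b, Wnt8b, Lmx1a and Lhx9 the points of every group spread from near 0 or low levels to high ones and the groups overlap, while Rspo3 keeps to a narrow range in both caudal groups, between 18.4 and 22.0 CPM.

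The levels of 7 of the genes moved together from library to library. On the log2(CPM + 0.5) scale, Pearson's r between Wnt3a, Wnt2b, Wnt8b, Lef1, Lmx1a, Lhx9 and Prox1 ran from 0.771 to 0.967 over the 21 pairs (n = 12 libraries). These points share libraries and dissections, and the values are given as a description. Prox1, Lef1, Wnt3a, Wnt2b, Wnt8b and Lmx1a had the same 5 highest libraries, which are knockout rostral 2, knockout caudal 5, control rostral 3, control caudal 1 and control caudal 9. Lhx9 shared 4 of these and had knockout caudal 7 in place of knockout caudal 5. Zbtb20 was less like them, with r between 0.303 and 0.695, and Rspo3 had r between -0.438 and -0.158 with the other 8 genes.

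Nr2f1 went with the same libraries. Its r with the 7 genes lay between 0.749 (Wnt3a) and 0.925 (Lhx9), and 4 of its 5 highest libraries were among the 5 named above. In knockout embryo 2, Wnt2b was at 3.60 CPM in the library labelled rostral and at 0.115 CPM in the one labelled caudal, and in control embryo 3 it was at 4.12 CPM and 0.0738 CPM. In knockout embryo 5 and control embryos 1 and 9 the caudal library was the higher one for all 7 genes. In knockout embryo 7 it was the higher one for Lhx9, Lef1 and Prox1, and the lower one for Wnt3a (0 CPM in the caudal and 0.357 CPM in the rostral library), Wnt2b (0.234 and 0.893 CPM), Lmx1a (0.391 and 0.536 CPM) and Wnt8b (0.957 and 0.964 CPM). In a bulk library, fewer cells of a type and less RNA per cell cannot be told apart, so these levels do not separate the amount of hem and hippocampal tissue in a library from its activity.

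**Figure D2:**
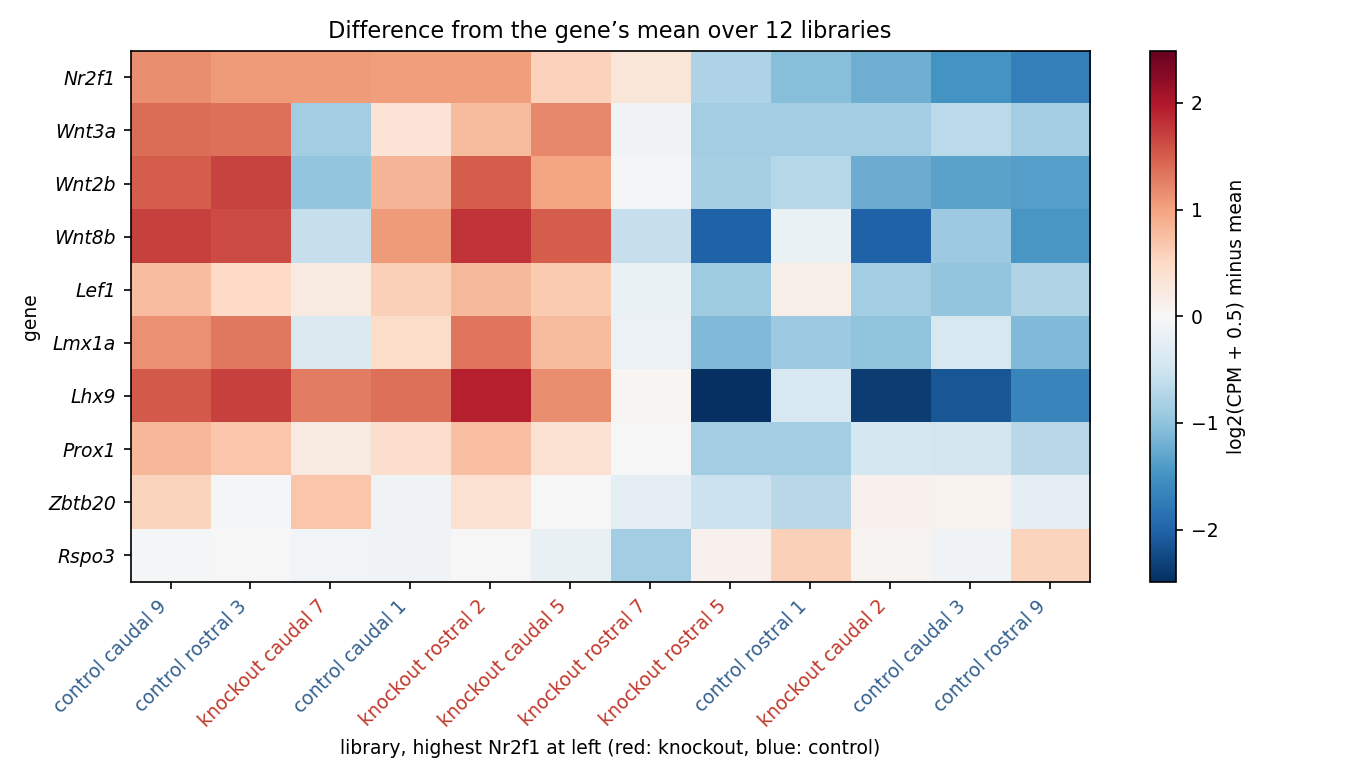
Colour shows log2(CPM + 0.5) minus the gene's mean over 12 libraries (red, above; blue, below) for Nr2f1 and the 9 genes (rows), with libraries (columns) ordered from the highest Nr2f1 level at the left, and library names in red for knockout and blue for control. The 6 libraries at the left are mostly above the mean and the 5 at the right mostly below it for the 7 genes from Wnt3a to Prox1, except knockout caudal 7, where Wnt3a, Wnt2b, Wnt8b and Lmx1a are below the mean.

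Knockout caudal 7 was the library in which Wnt3a, Wnt2b, Wnt8b and Lmx1a came apart from Lhx9, Lef1, Prox1 and Zbtb20. Nr2f1 was at 348 CPM there, Lhx9 at 14.3 CPM, Lef1 at 6.33 CPM, Prox1 at 50.7 CPM and Zbtb20 at 1276 CPM. All were above their means over the 12 libraries, which were close for Lef1 (5.98 CPM) and Prox1 (47.3 CPM). Wnt3a had no count, Wnt2b was at 0.234 CPM, Lmx1a at 0.391 CPM and Wnt8b at 0.957 CPM, all below their means. Of 13 other hem and roof plate genes 12 were below their own mean in that library, Msx1 at 0.156 CPM among them, and of 8 other R-spondin and receptor genes 7 were, with Rspo1 at 0.0781 CPM and Rspo2 at 1.09 CPM. The exception of the 8 was Rnf43, which encodes a ligase that removes Frizzled receptors, at 1.15 CPM. Other genes of the dentate gyrus and Ammon horn were mostly low there as well, and patterning genes were divided. Of 12 other dentate gyrus genes 10 were below their means there, and of 9 Ammon horn genes 7 were. Of 21 other medial pallium and hippocampal patterning genes 12 were above their means and 9 below. Lists of other tissue were low there too. All 16 ventral forebrain and striatum genes, all 14 endothelial genes and 13 of 14 meninges and fibroblast genes were below their means. Among all lists besides the 9 genes, only that of medial pallium and hippocampal patterning had more genes above than below. Low levels there were thus not particular to the hem genes, and a share over all genes is not given. The part of tissue content in these values was not tested. Of 17 Wnt receptor and co-receptor genes 8 were above and 9 below their means in knockout caudal 7. Fzd1 was at 101.3 CPM, the highest of the 12 libraries, and Fzd7 at 26.6 CPM, the second highest. Fzd10, another Frizzled receptor gene, was at 0.430 CPM, below its mean of 1.16 CPM. Knockout caudal 7 is 1 library and has no replicate with the same profile.

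**Figure D3:**
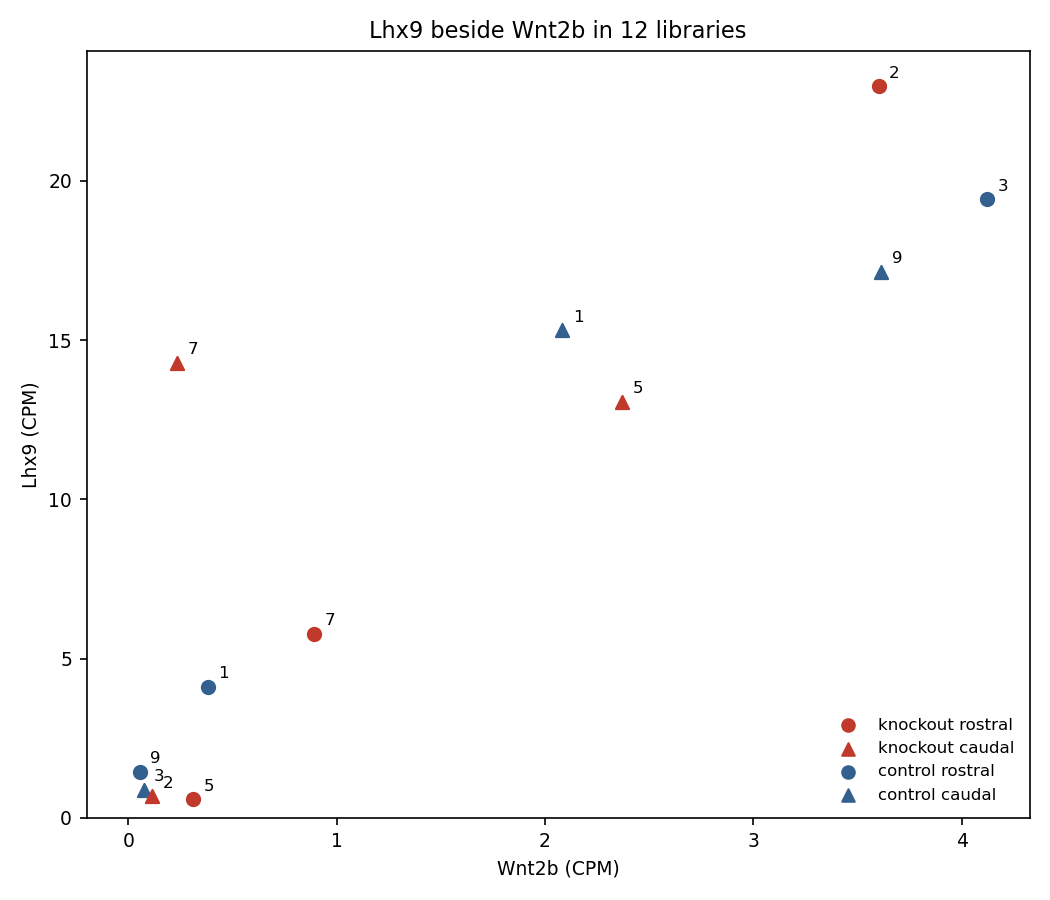
Lhx9 (y axis, CPM) against Wnt2b (x axis, CPM) in the 12 libraries, in red for knockout and blue for control, with circles for libraries labelled rostral, triangles for those labelled caudal, and the embryo number beside each point. Knockout caudal 7 lies apart, with 14.3 CPM of Lhx9 and 0.234 CPM of Wnt2b, while the other 11 libraries run from low values of both genes to high values of both.

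Knockout and control did not differ detectably in any of the 9 genes when the rostral and caudal counts of a titled embryo were summed. No gene of the 9 was called by edgeR's quasi-likelihood test at a Benjamini-Hochberg adjusted p under 0.05 (3 against 3 sums), where 6 of 18935 genes tested (0.0317%) were. None of the 9 had an unadjusted p under 0.05, which 643 genes (3.40%) had, and none was called by DESeq2, which called 32 genes. The adjusted p was 1.00 for each of the 9, and their log2 fold changes (knockout over control) ran from -0.44 to 0.17 with a median of -0.18, against a median of 0.00 over all genes tested. Egfr fell in the knockouts by 2.39 on the log2 scale (SE 0.17, adjusted p = 0.00553).

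Summing the parts narrowed the spread for the hippocampal genes and for the hem ligands alike. Wnt8b, for instance, ran from 0.0366 to 7.03 CPM over libraries and from 0.961 to 3.69 CPM over the sums. Prox1 was at 41.1, 53.4 and 47.0 CPM in the sums of knockout embryos 5, 2 and 7, against 41.2, 50.0 and 51.4 CPM in those of control embryos 1, 3 and 9, with a log2 fold change of 0.01 ± 0.12 (SE). Lhx9 was at 7.16, 12.3 and 9.85 CPM in the knockout sums, against 9.69, 9.82 and 9.18 CPM in the control sums (0.06 ± 0.17, SE). Lef1 was at 5.84, 6.37 and 5.48 CPM in the knockout sums, against 7.12, 5.02 and 6.21 CPM in the control sums (-0.02 ± 0.14, SE). For Lhx9 a 39.2-fold range over libraries thus became one of 7.16 to 12.3 CPM over the sums per titled embryo. For Prox1, Lhx9 and Lef1 the genotype difference was smaller than its SE. The sums follow the titles, and those of knockout embryos 5 and 2 and control embryo 9 join libraries with transcripts of different sexes. Zbtb20 was at 669.9, 942 and 961 CPM in the knockout sums, against 616, 807 and 911 CPM in the control sums (0.17 ± 0.20, SE). Its 2 lowest sums were 1 of each genotype.

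The sums of the hem ligands averaged less in knockouts than in controls, by less than the SE of the difference. Wnt2b was at 1.40, 1.93 and 0.578 CPM in the sums of knockout embryos 5, 2 and 7, against 1.23, 2.03 and 1.81 CPM in those of control embryos 1, 3 and 9 (-0.36 ± 0.39, SE). Wnt8b was at 3.01, 3.69 and 0.961 CPM in the knockout sums, against 2.72, 3.32 and 3.41 CPM in the control sums (-0.28 ± 0.42, SE). Wnt3a was at 0.832, 0.566 and 0.187 CPM in the knockout sums, against 0.326, 0.936 and 0.927 CPM in the control sums (-0.44 ± 0.55, SE). In all 3 genes the lowest of the 6 sums was knockout embryo 7, and the other knockout embryos were within or above the range of the controls. Lmx1a was at 0.797, 1.30 and 0.466 CPM in the knockout sums, against 0.595, 1.32 and 1.02 CPM in the control sums (-0.18 ± 0.40, SE). Without knockout embryo 7 the log2 fold changes were -0.05 for Wnt3a, -0.02 for Wnt2b, 0.10 for Wnt8b and 0.10 for Lmx1a. Leaving out any 1 embryo moved that of Wnt3a between -0.93 (without knockout embryo 5) and -0.05, and that of Wnt2b between -0.74 (without knockout embryo 2) and -0.02.

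Rspo3 had the smallest p of the 9 genes in the sums. It was at 20.4, 21.3 and 15.3 CPM in the sums of knockout embryos 5, 2 and 7, against 25.9, 20.3 and 25.8 CPM in those of control embryos 1, 3 and 9, with a log2 fold change of -0.31 ± 0.14 (SE) and an unadjusted p of 0.0514 (edgeR). Knockout embryo 7 was the lowest and control embryos 1 and 9 the highest, and knockout embryo 2 was above control embryo 3. Over all genes tested the adjusted p was 1.00. Without knockout embryo 7 the log2 fold change was -0.19. The rostral library of that embryo had the highest share of mitochondrial counts, 7.25%, and its part in this value was not tested.

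In the libraries labelled rostral, 8 of the 9 genes passed the filter on low counts, all but Wnt3a, and none was called, where edgeR called 0 of 17131 genes (0%) and DESeq2 called 4. None had an unadjusted p under 0.05, which 180 genes (1.05%) had. Rspo3 averaged 18.1 ± 6.10 CPM in knockout rostral libraries and 28.0 ± 5.95 CPM in control rostral libraries (SD, n = 3 each), a log2 fold change of -0.60 ± 0.28 (SE, unadjusted p = 0.0722, adjusted p = 1.00). Its ranges overlapped, since knockout rostral 5 was above control rostral 3. Wnt2b averaged 1.60 ± 1.76 CPM in knockout rostral libraries and 1.52 ± 2.26 CPM in control rostral libraries (SD, n = 3 each), a log2 fold change of 0.12 ± 1.30 (SE). The SE shows how little such a comparison can resolve: leaving out knockout rostral 2 gave -1.28, and leaving out control rostral 3 gave 2.82. Egfr had a log2 fold change of -2.27 ± 0.30 here with an adjusted p of 1.00, so this comparison did not call the targeted gene either.

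In the libraries labelled caudal all 9 genes were tested and none was called, where edgeR called 8 of 16964 genes (0.0472%), Egfr among them, and DESeq2 called 71. None of the 9 had an unadjusted p under 0.05, which 871 genes (5.13%) had. Rspo3 averaged 20.1 ± 1.81 CPM in knockout caudal libraries and 20.0 ± 0.559 CPM in control caudal libraries (SD, n = 3 each), and its log2 fold change of 0.02 ± 0.10 (SE) was the most precise of the 9. Wnt2b averaged 0.906 ± 1.27 CPM in knockout caudal libraries and 1.92 ± 1.78 CPM in control caudal libraries (SD, n = 3 each), with a log2 fold change of -1.04 ± 1.30 (SE). The log2 fold changes of the 9 genes ran from -1.04 to 0.10. No gene of the 9 had knockout values wholly below or wholly above the control values, in the sums or in either labelled part. Over all genes tested, 5.22% were wholly below and 3.07% wholly above in the sums, 4.75% and 1.45% in rostral libraries and 6.14% and 4% in caudal libraries.

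**Figure D4:**
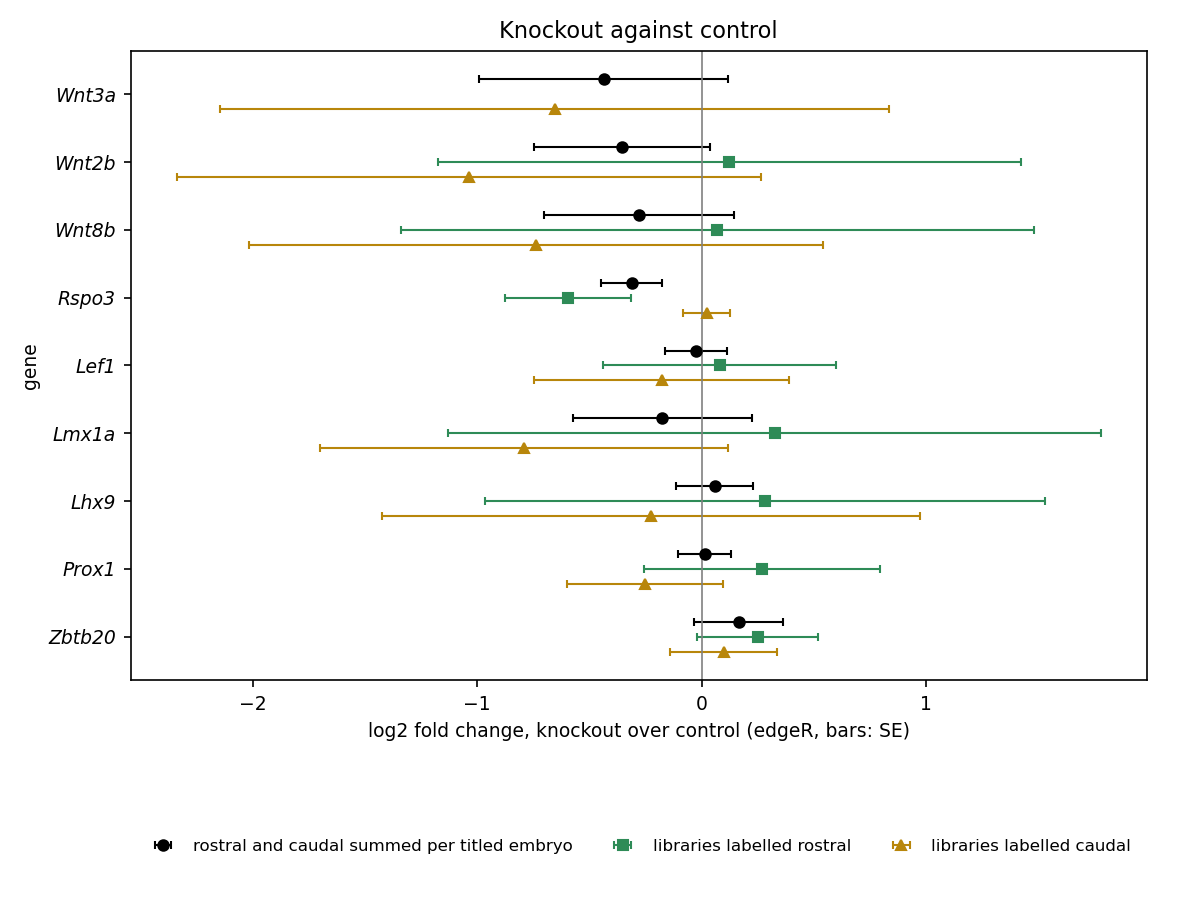
Log2 fold change of each gene (rows), knockout over control, with its SE as a bar, from edgeR on the sums per titled embryo (black circles), the libraries labelled rostral (green squares, no value for Wnt3a) and those labelled caudal (ochre triangles), n = 3 against 3 in each. The bars are short for Rspo3 and Zbtb20 in every comparison and, in the sums, for Prox1, Lef1 and Lhx9, and reach up to 1.49 for Wnt3a in caudal libraries.

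Without knockout embryo 2 and control embryo 3, whose Nr2f1 levels go against the labels, none of the 9 genes was called in any genotype comparison by edgeR either (2 against 2 in each). Egfr, the deleted gene, was not called in these sums (-2.32, adjusted p = 0.228), nor without knockout embryo 5 alone (-2.33, adjusted p = 0.0782). In the sums 21 of 18990 genes were called (0.111%), and 1 of the 9 had an unadjusted p under 0.05, against 8.41% of all genes. That gene was Rspo3, with a log2 fold change of -0.50 ± 0.12 (SE, unadjusted p = 0.00534, adjusted p = 0.377). With all embryos it was -0.31, and the embryos left out had its highest knockout sum (21.3 CPM) and its lowest control sum (20.3 CPM). The larger value thus depends on that choice. In rostral libraries, which are part of these sums, 7 of the 9 passed the filter. Rspo3 was the 1 gene with an unadjusted p under 0.05 there (-0.87 ± 0.31, SE, unadjusted p = 0.0368, adjusted p = 0.999), against 1.83% of all genes and 0 called (0%). In caudal libraries 0 of the 9 had one, against 4.35%, and 0.0529% of genes were called. There Rspo3 had a log2 fold change of -0.05 ± 0.13 (SE), and for the interaction 0 of the 9 had an unadjusted p under 0.05, against 2.73%.

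The sums without knockout embryos 5 and 2 and control embryo 9, whose labelled parts held transcripts of different sexes, set 1 knockout embryo (7) against control embryos 1 and 3, and there 1 of the 9 genes was called. Wnt8b had a log2 fold change of -1.57 ± 0.31 (SE, adjusted p = 0.00207, edgeR), where 344 of 19945 genes (1.72%) were called, and 5 of the 9 had an unadjusted p under 0.05, against 9.12% of all genes. Wnt2b had -1.42 ± 0.40 (adjusted p = 0.0715), Rspo3 -0.53 ± 0.15 (adjusted p = 0.0958), Wnt3a -1.68 ± 0.71 (adjusted p = 0.443) and Zbtb20 0.50 ± 0.18 (adjusted p = 0.477, all ± SE). Both control sums kept here include a library with transcripts of both sexes, control rostral 1 or control rostral 3, so this subset is not free of such conflicts. Knockout embryo 7 was the lowest of the 6 sums for Wnt8b, Wnt2b and Wnt3a, and with a single knockout embryo its own difference and that of the genotype cannot be told apart. None of the 9 was called without these embryos in rostral libraries (0.466% of genes called), caudal libraries (0%), between parts (0%) or for the interaction (0%). Without control rostral 1 and 3 the rostral comparison has 1 control library, assumed to vary like the knockouts, and called no gene (0%), and 0 of the 9 had an unadjusted p under 0.05, against 2.79% of all genes. Its log2 fold changes were -0.77 ± 0.38 for Rspo3 and 4.34 ± 1.99 for Wnt2b (± SE).

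The difference between the parts did not depend detectably on genotype. The contrast of knockout (caudal minus rostral) minus control (caudal minus rostral) called none of the 9 genes, with 0 of 17734 genes called (0%) by edgeR and 1 by DESeq2. None of the 9 had an unadjusted p under 0.05, which 486 genes (2.74%) had. Rspo3 had the smallest p, with a contrast of 0.62 ± 0.32 on the log2 scale (SE, unadjusted p = 0.0756, adjusted p = 0.998). The SEs of the 9 genes ran from 0.32 to 2.46, so for the hem ligands a contrast of several fold was not detectable. Without control rostral 1 and 3, which held transcripts of both sexes and leave 1 control rostral library assumed to vary like the other groups, the contrasts of the 9 genes ran from -7.38 (Wnt3a) to 0.80 (Rspo3) with adjusted p between 0.687 and 0.985 (edgeR), and nothing is read from the absence of calls there.

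Between libraries labelled caudal and rostral, over both genotypes, none of the 9 genes was called, with 0 of 17430 genes called (0%) by edgeR and 54 by DESeq2. An unadjusted p under 0.05 was found for 1 of the 9, against 1723 genes (9.89%) in all. That gene was Zbtb20, which averaged 968 ± 268 CPM in knockout caudal and 749 ± 252 CPM in knockout rostral libraries, and 912 ± 215 CPM in control caudal and 646 ± 147 CPM in control rostral libraries (SD, n = 3 each). Its log2 fold change, caudal over rostral, was 0.47 ± 0.19 (SE, unadjusted p = 0.0322, adjusted p = 0.458). The caudal library was the higher one in 5 of the 6 titled embryos, all but knockout embryo 2. The other log2 fold changes were 0.38 ± 1.17 for Wnt3a, -0.18 ± 0.99 for Wnt2b, 0.16 ± 1.01 for Wnt8b, -0.14 ± 0.18 for Rspo3, 0.20 ± 0.41 for Lef1, -0.01 ± 0.92 for Lmx1a, 0.21 ± 0.91 for Lhx9 and 0.27 ± 0.34 for Prox1 (± SE).

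Without the libraries of knockout embryo 2 and control embryo 3 the same 9 genes had other values, and 68 of 17271 genes (0.394%) were called. The log2 fold changes, caudal over rostral, were then 3.45 ± 1.35 for Wnt3a, 2.75 ± 0.79 for Lmx1a, 2.67 ± 0.79 for Wnt8b, 2.33 ± 0.57 for Lhx9 and 2.28 ± 0.83 for Wnt2b (± SE, 4 libraries against 4). Prox1 had 1.07 ± 0.24, Lef1 1.03 ± 0.25 and Zbtb20 0.75 ± 0.21, while Rspo3 had -0.21 ± 0.23. No gene of the 9 was called there (adjusted p between 0.110 and 0.797, edgeR). The embryos were left out for their Nr2f1 levels, and Nr2f1 moves with these genes, so the larger values are not independent of that choice and are given as a description.

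**Figure D5:**
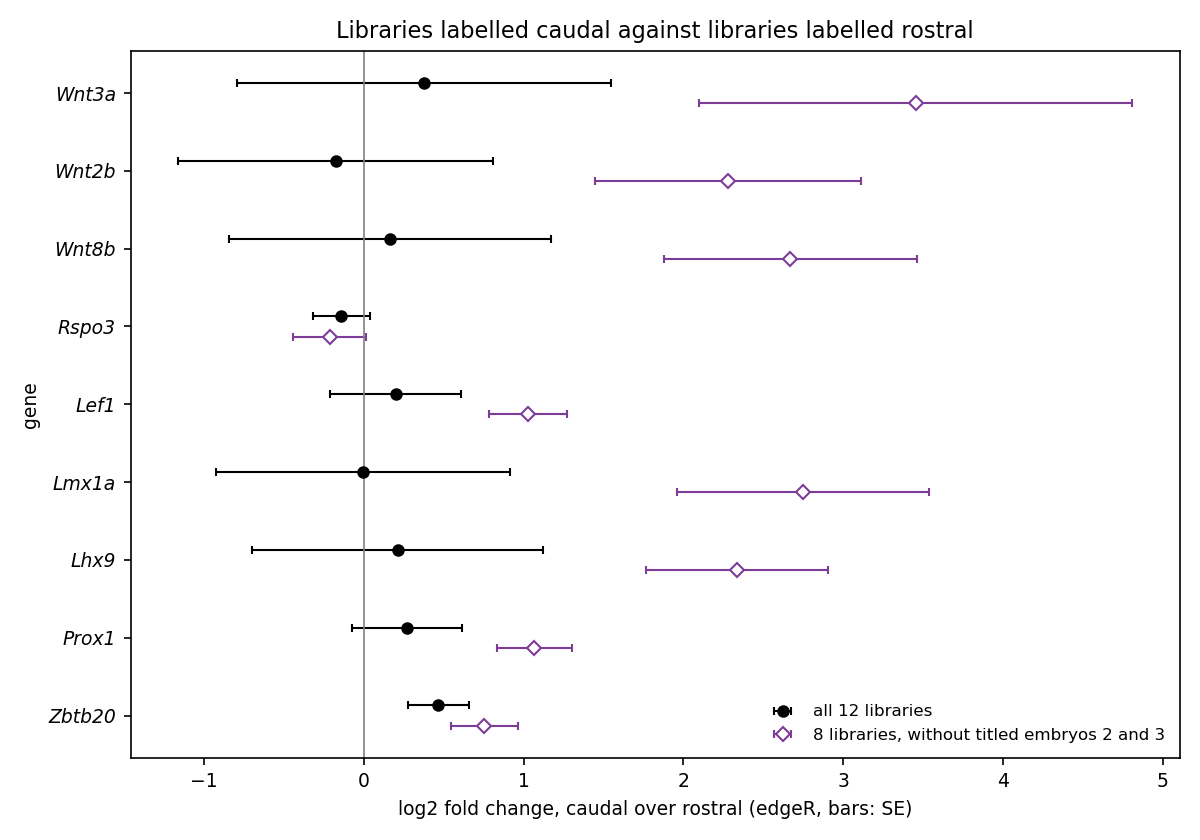
Log2 fold change of each gene (rows), libraries labelled caudal over libraries labelled rostral, with its SE as a bar, from edgeR on all 12 libraries (black circles) and on the 8 libraries without titled embryos 2 and 3 (open diamonds). With all libraries the values lie between -0.18 and 0.47, and without those 4 libraries between 0.75 and 3.45 for every gene except Rspo3, at -0.21.

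Among 219 other listed genes tested in the sums, each counted once, 1 was called, the Notch target Hes5, which is expressed by radial glia (log2 fold change -1.23, adjusted p = 0.00810, edgeR). Its call was lost without knockout embryo 5 (adjusted p = 0.0782) and without control embryo 1 (adjusted p = 0.0643). None of the listed genes was called in the rostral, caudal, caudal-against-rostral or interaction comparisons. Of 7 other Wnt ligand genes tested in the sums, 4 had a positive and 3 a negative log2 fold change, with a median of 0.05, and Wnt7b, a ligand made in the cortex, had the smallest p (0.20, unadjusted p = 0.00805, adjusted p = 1.00). Of 17 receptor and co-receptor genes 10 were positive and 7 negative, with a median of 0.04, and Fzd8 (0.25, unadjusted p = 0.0218) and Fzd9 (-0.29, unadjusted p = 0.0260) had the smallest p, both at an adjusted p of 1.00. All 7 tested genes of the list of other R-spondins and their receptors were negative, with a median of -0.33, and the smallest unadjusted p was 0.326, of Znrf3, whose product removes Frizzled receptors from the membrane. Of 24 intracellular Wnt pathway genes 20 were negative (median -0.04), and of 11 Wnt antagonist genes 4 (median 0.04). Lists of other tissue were negative as well, with all 15 tested ventral forebrain and striatum genes (median -0.53) and 4 of 6 choroid plexus genes (median -0.53), and the part of such tissue in the values of the hem genes was not tested. Of the 219 genes 140 were negative, and the median over all genes tested was 0.00.

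Of 10 tested Wnt target genes 3 were positive and 7 negative in the sums (median -0.04), and Myc (-0.38, unadjusted p = 0.00235, adjusted p = 0.994) and Nkd1, a feedback inhibitor (-0.27, unadjusted p = 0.00688, adjusted p = 1.00), had the smallest p. Of 20 other medial pallium and hippocampal patterning genes 10 were positive and 10 negative (median 0.00), and Dmrt3, a doublesex-related factor of the medial cortex, had the smallest p (-0.43, unadjusted p = 0.00944, adjusted p = 1.00). Of 8 other hem and roof plate genes 2 were positive and 6 negative (median -0.27). None of these passed the test with the filter on low counts; with no filter Myc was called (adjusted p = 0.00778, edgeR).

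Several listed genes had profiles like the hem ligands over the libraries. Rspo1, an R-spondin, ran from 0.0186 to 3.29 CPM with r = 0.986 to Wnt2b, and Fzd10, a Frizzled receptor, from 0.0763 to 3.29 CPM with r = 0.985 (log2(CPM + 0.5), n = 12 libraries). Msx1, a Bmp target, had r = 0.98 and Sp5, a Wnt target, r = 0.95 to Wnt2b. Axin2, a general Wnt target, had r = 0.91 but ran only from 18.4 to 30.5 CPM. Sfrp1, a secreted Wnt antagonist, went the other way, from 144.6 to 351 CPM with r = -0.84, and was lowest in knockout rostral 2.

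Over 12686 genes with a mean of at least 1 CPM, the nearest profiles to Wnt2b were Rspo1, Fzd10 and Rab31 (r = 0.972), and to Wnt8b Eln, Cnmd and Rnf43 (r = 0.957, 0.954 and 0.953). Lhx9 was nearest to Capn1, Fam163a and Necab3 (r = 0.989, 0.984 and 0.979), and Lef1 to Galnt15, Capn1 and Fam163a (r = 0.980, 0.972 and 0.957). Prox1 was nearest to Stat3, Slit2 and Adamts1 (r = 0.971, 0.968 and 0.968). Zbtb20 was nearest to Mir568 (r = 0.919), which lies within it and shares its reads, then to Irf2bp2 and Rab11fip2 (r = 0.913 and 0.882). Rspo3 was nearest to Fbxo21, Ttpal and Nsun2 (r = 0.895, 0.893 and 0.891), none of them among the nearest of another gene of the 9. Wnt3a and Lmx1a were below 1 CPM on average and were not searched.

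Markers of tissue that a dissection could add or miss moved over the same libraries, and their part in the values above was not tested. Summed over 16 ventral forebrain and striatum genes, levels ran from 39.1 to 173.7 CPM in knockout rostral, 40.4 to 251 CPM in knockout caudal, 61.0 to 261 CPM in control rostral and 79.6 to 386 CPM in control caudal libraries. They were highest in control caudal 3, control rostral 9 and knockout caudal 2, where Wnt2b was at 0.0738, 0.0559 and 0.115 CPM. Knockout caudal 7 and knockout rostral 5 were low for both, with sums of 40.4 and 75.1 CPM and Wnt2b at 0.234 and 0.311 CPM. The 13 choroid plexus genes summed to 15.3 to 26.5 CPM in knockout rostral, 14.9 to 31.3 CPM in knockout caudal, 15.6 to 81.8 CPM in control rostral and 24.3 to 34.6 CPM in control caudal libraries. Their most specific member, Ttr, was at 49.5 CPM in control rostral 3, at 0 in knockout caudal 7 and at or below 10.1 CPM in the other libraries.

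The 12 genes listed for Cajal-Retzius cells, some of which leave the hem, summed to 439 to 922 CPM in knockout rostral, 417 to 626 CPM in knockout caudal, 382 to 1155 CPM in control rostral and 399 to 659 CPM in control caudal libraries. Eomes, with a mean of 279 CPM, and Reln, with 226 CPM, were large parts of these sums. The sums were highest in control rostral 3 and knockout rostral 2, which were also among the highest for the hem ligands. Other libraries did not follow the ligands. Control rostral 1 (638 CPM) and knockout rostral 5 (593 CPM), low for Wnt2b, were above control caudal 1 (514 CPM) and knockout caudal 5 (544 CPM), high for Wnt2b. The 12 dentate gyrus genes summed to 150.5 to 272 CPM over the libraries, most of it Sema5a, which ran from 105.4 to 238 CPM. The other 11 summed to 27.0 to 56.9 CPM, highest in control rostral 3 and knockout rostral 2 and lowest in knockout caudal 7. The 14 genes listed for caudal ganglionic eminence interneurons, a second source of Prox1 transcripts, summed to 623 to 944 CPM in knockout rostral, 549 to 1059 CPM in knockout caudal, 663 to 934 CPM in control rostral and 759.9 to 1182 CPM in control caudal libraries. Cnr1 and Dlx1 had the largest means of these, 255 and 161 CPM, against 14.7 CPM for Htr3a and 0.0430 CPM for Vip. The sum is thus not a level of these interneurons alone. The 15 genes of the thalamus, a further site of Lhx9 and Lef1, summed to 168.5 to 214 CPM in knockout rostral, 167 to 213 CPM in knockout caudal, 183 to 218 CPM in control rostral and 156 to 197 CPM in control caudal libraries. Of their members Tcf7l2 ran from 6.33 to 12.2 CPM, Slc17a6 from 61.3 to 118 CPM and Gbx2 from 0 to 0.553 CPM. The part of thalamic tissue in the levels of Lhx9 and Lef1 was not tested.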

How the data were processed

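Messenger RNA of 12 libraries from E17.5 mouse cortex and hippocampal formation was analysed. The submitters' processing notes name STAR 2.7.8a, featureCounts 2.0.3 and the build GRCm39. Genes are those of mouse GENCODE release 28, counting was stranded (reverse), and fragments with several hits or genes were split, per the file headers. The deposited values are thus estimated counts (expected counts) of 55357 genes with no normalization, which spreads reads of near-identical copies over them.

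Rounded counts went into edgeR 4.0.16 under R 4.3.3 (TMM, filterByExpr, robust quasi-likelihood fits, Benjamini-Hochberg adjusted p under 0.05 over all genes tested). CPM were computed from the library totals, and TPM from counts per kilobase of annotated exon length, rescaled to the same total. Groups came from the titles. Knockout was compared with control in sums per titled embryo and in each labelled part, caudal with rostral over 12 libraries with genotype as covariate, and the interaction in 4 group means. Depth allows up to 3 counts behind a count of 0; floors cover counting error only. The edgeR comparison of knockout with control was tested on simulated counts in each labelled part, with the same spread set for all genes. The other comparisons were not simulated.

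Alternatives were DESeq2's size factors, DESeq2 1.42.0, no filter, each titled embryo left out, a block for the titles' first number (4858 or 4692), a block for the titled embryo, 12 libraries as separate samples (with the labelled part or Nr2f1 as covariate), no control rostral 1 and 3, and 2 other scalings of CPM. Leaving out titled embryos 2 and 3, titled embryos 5, 2 and 9, and, in rostral libraries, control rostral 1 and 3 was chosen after seeing the data. The members, the 19 other gene lists and the tests were chosen with earlier results of these data known. Named genes are the 9 members, Egfr, Nr2f1, up to 4 called genes or the 2 with the smallest p of a list, and the 3 genes with the highest r to each member with a mean of at least 1 CPM; some genes that the rule allows are left out. Listed genes named for levels or r were chosen after their values were seen.

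Both parts of an embryo share a number in the titles. Deviations from the group means over 1000 genes had r between -0.70 and -0.26 in the 6 titled pairs, with 0 above 0.1, so sums and blocks by embryo rest on the titles alone. Replicates differed by far more than sampling noise.

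Promoter windows are RefSeq's, build GRCm38.p6, matched by symbol; coordinates of genes are those of the files.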

Additional observations from a re-analysis of the deposited data

How the results depend on the processing

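Over 589 tests of the 9 genes in the alternatives to the 5 comparisons 1 was called, Wnt8b in the sums without titled embryos 5, 2 and 9 (adjusted p = 0.00207, edgeR, 1 knockout embryo against 2 controls). The number of genes called over the whole table did move. In the sums, where 6 were called, DESeq2 called 32, no filter 113, 12 separate libraries 3, the same without control rostral 1 and 3 10, and leaving out titled embryos 2 and 3 gave 21, and titled embryos 5, 2 and 9 344; leaving out 1 embryo gave 2 (knockout 5) to 21 (knockout 2). In rostral libraries (0) DESeq2 called 4, no filter 2 and the fit without titled embryos 5, 2 and 9 84. In caudal libraries (8) DESeq2 called 71, no filter 57, the fit without titled embryos 5, 2 and 9 0, and leaving out 1 embryo gave 2 to 8. Between parts (0) DESeq2 called 54 and leaving out titled embryos 2 and 3 gave 68. For the interaction (0) DESeq2 called 1, and leaving out 1 embryo gave 0 to 6. The cause of these shifts was not tested. Myc passed in the sums with no filter, and Egfr and Hes5 lost their calls there without knockout embryo 5.

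Small log2 fold changes changed sign. In the sums without titled embryos 2 and 3 Prox1 had -0.038 and Lhx9 -0.11, and with Nr2f1 as covariate -0.11 and -0.47. Without control rostral 1 and 3 as separate libraries Lef1 had 0.16, Wnt3a 0.084, Wnt8b 0.055 and Lmx1a 0.079. Leaving out 1 embryo gave -0.087 to 0.10 for Prox1, -0.15 to 0.090 for Lef1, -0.62 to 0.10 for Wnt8b, -0.59 to 0.10 for Lmx1a and -0.13 to 0.24 for Lhx9. It gave -1.28 to 2.82 for Wnt2b in rostral libraries and -0.043 to 0.093 for Rspo3 in caudal ones, where Rspo3 had -0.053 without titled embryos 2 and 3. Between parts it gave -0.078 to 0.60 for Lef1, -0.70 to 1.58 for Wnt3a, -0.87 to 0.71 for Wnt2b, -0.66 to 1.30 for Wnt8b, -0.62 to 0.95 for Lmx1a and -0.22 to 1.09 for Lhx9. There, without titled embryos 2 and 3, Wnt2b had 2.28 and Lmx1a 2.75; without control rostral 1 and 3 they had 0.15 and 0.30; and with no filter Lmx1a had 0.0035. Without titled embryos 5, 2 and 9 Wnt2b had -1.22 in rostral libraries, and between parts Lef1 had -0.061, Wnt3a -1.74, Wnt8b -0.48 and Rspo3 0.013.

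With the titled embryo as a replicate block, which the pairing check does not bear out, Wnt2b had 0.011 and Lmx1a 0.63 between parts, Zbtb20 0.48, and the interaction of Rspo3 was 0.64; the block changed no call of the 9 genes. Wnt3a, Lmx1a and Wnt2b are limited by depth, with at most 49, 69 and 104 counts in a library, and the hem ligands more by the spread between libraries than by counting.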

Other observations

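Genes of Cajal-Retzius cells, some of which are born in the hem, were uneven over the libraries in a way that only partly matched the hem ligands; these genes were chosen after their values were seen. Trp73, which marks the hem-derived cells, was at 4.17, 20.1 and 6.50 CPM in knockout rostral 5, 2 and 7, against 6.26, 25.1 and 0.335 CPM in control rostral 1, 3 and 9. It was at 4.57, 0.802 and 5.58 CPM in knockout caudal 5, 2 and 7, against 4.71, 2.69 and 10.8 CPM in control caudal 1, 3 and 9. Knockout caudal 7, with no Wnt3a count, thus had more Trp73 than knockout caudal 5, which had 1.58 CPM of Wnt3a. Reln, the secreted protein of these cells, was at 158.3 CPM in knockout caudal 7 and at 103.1 CPM in knockout caudal 5. Both genes were nonetheless below their means over the 12 libraries in knockout caudal 7 (7.64 CPM for Trp73 and 226 CPM for Reln). Over the list, 8 of 12 Cajal-Retzius genes were higher and 4 lower in knockout caudal 7 than in knockout caudal 5. Against their means over the 12 libraries, 9 of these 12 genes were below and 3 above in knockout caudal 7. Lhx5, another gene of the hem and these cells, was lower in knockout caudal 7 than in knockout caudal 5 (0.723 and 1.30 CPM). Dmrt3 was at 3.28 CPM in knockout caudal 7, against 0.115 CPM in knockout caudal 2 and 4.38 CPM in knockout caudal 5.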
